A study of Homo sapiens with 4 samples.

Results

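The intervals described here lie on chromosome 21 between 15 and 20 Mb, a block of the long arm around the genes NRIP1 and USP25. They come from a CUT&RUN map of GATA4 in PaTu8988S, an established line of human pancreatic adenocarcinoma. In CUT&RUN, an antibody bound to its target in permeabilised cells brings in a nuclease that cuts the DNA beside it, and the released fragments are sequenced. All 4 libraries formed 1 group with no treatment or genetic change named in the labels, each from 500000 cells with 10 ug of the anti-GATA4 antibody MAB2606. The deposited data were 1 list of intervals called as peaks common to those libraries, in build hg19. The list gives positions only, with no score or count, and it pools the libraries. No value therefore has a spread between libraries, depth is unknown, and no test was possible: each comparison below describes places within this list. No library of another antibody, of another line or of input DNA was analysed here, and whether the libraries came from separate cultures is not stated.

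Members were selected on position: every listed interval of chromosome 21 whose start is at 15 Mb or later and before 20 Mb. The limits were chosen from the density of the intervals themselves, so that density is a description of the choice and not a finding. The block held 458 of the 21308 intervals of the list (2.15%) and 458 of the 802 on chromosome 21 (57.1%). At the lower limit, the last interval left out was chr21:14897678-14898187 and the first member was chr21:15022896-15023257, 124.7 kb further on. At the upper limit, the last member was chr21:18909649-18909933 and the first interval left out was chr21:20420542-20421144, 1.51 Mb further on.

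GATA4 belongs to the zinc-finger GATA factors, acts in the development of heart, gut and pancreas, recognises a short GATA core in DNA and can bind sites in closed chromatin. In pancreas development it acts together with its paralogue GATA6. NRIP1, also called RIP140, encodes a coregulator that nuclear receptors such as the oestrogen and retinoic acid receptors recruit, mostly as a corepressor. USP25 encodes a deubiquitinating enzyme, which removes ubiquitin from other proteins. The selection rule places NRIP1 near 16.33 to 16.44 Mb and USP25 near 17.1 to 17.25 Mb, rounded to 10 kb. An hg19 annotation was not used here, so these rounded windows stand in for the genes, and exons, introns and start sites within them were not resolved.

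In the RefSeq gene order of GRCh38.p14, NRIP1 and USP25 are neighbouring protein-coding genes. SAMSN1, an adaptor protein gene of blood cells, lies next to NRIP1 on the other side, and CXADR, the gene of the coxsackievirus and adenovirus receptor, next to USP25. Between NRIP1 and USP25 the table lists 12 genes, none of them protein-coding: 8 lncRNA genes, 3 pseudogenes and 1 snoRNA gene. Of the 14 genes from NRIP1 to USP25, 10 had promoter sequence in the RefSeq set, 12 promoters in all because NRIP1 has 3. The sequences are from the other build and cannot be placed against the intervals, so whether an interval lies on any of them was not examined. The promoter of the gene at each end and the lncRNA promoter nearest to it in the set are shown, since the densest run of intervals reaches from one end to the other. Each is the 250 bases before the start, 5′ to 3′ along the gene, from RefSeq (GRCh38.p14), and capitals mark a 6-base GATA sequence on either strand, which is AGATAA or its variant AGATAG, or else TGATAA or its variant TGATAG. NRIP1 is shown by its outermost start, at chr21:15065937-15066186 on the minus strand of GRCh38.p14, LINC02920 at chr21:15066820-15067069 (plus), LOC105369302 at chr21:15627261-15627510 (minus) and USP25 at chr21:15729732-15729981 (plus).
NRIP1: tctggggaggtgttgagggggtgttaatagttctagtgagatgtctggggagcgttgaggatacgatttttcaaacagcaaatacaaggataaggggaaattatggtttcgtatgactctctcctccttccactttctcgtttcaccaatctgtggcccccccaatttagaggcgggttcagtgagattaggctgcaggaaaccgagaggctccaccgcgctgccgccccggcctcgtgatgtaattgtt
LINC02920: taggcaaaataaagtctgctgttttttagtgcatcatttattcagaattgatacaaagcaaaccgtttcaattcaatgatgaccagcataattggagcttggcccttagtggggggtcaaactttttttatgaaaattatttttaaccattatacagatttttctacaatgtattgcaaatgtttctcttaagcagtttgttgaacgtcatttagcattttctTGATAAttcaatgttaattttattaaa
LOC105369302: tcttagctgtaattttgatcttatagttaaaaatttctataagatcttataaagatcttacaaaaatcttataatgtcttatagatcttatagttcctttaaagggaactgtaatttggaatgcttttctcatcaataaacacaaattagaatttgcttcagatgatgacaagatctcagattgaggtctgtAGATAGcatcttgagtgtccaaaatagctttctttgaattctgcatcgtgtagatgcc
USP25: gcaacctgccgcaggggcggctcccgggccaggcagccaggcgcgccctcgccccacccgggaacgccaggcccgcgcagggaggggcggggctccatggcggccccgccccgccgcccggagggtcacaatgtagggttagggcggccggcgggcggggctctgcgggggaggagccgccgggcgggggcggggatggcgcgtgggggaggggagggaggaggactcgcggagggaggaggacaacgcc

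No promoter of NRIP1 or USP25 held the 6-base sequence. Of the 8 lncRNA promoters between them, 5 did, with 1 match each. Among all 35116 RefSeq promoters cut to the same length, 7840 (22.3%) held it. The lncRNA promoters were richer in A and T, with a median GC content of 40.0%, against 58.0% over all promoters. The NRIP1 promoters had 50.8%, 68.4% and 80.8%, and the USP25 promoter had 80.8%. The capital letters mark no site, and their absence from a window says nothing about GATA4 there.

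The members did not fill the block evenly. Linking neighbours across gaps of up to 12500 bp gave clusters, and 346 of the 458 members (75.5%) fell into a single one, chr21:16306228-17216982. This cluster, called the core below, took 18.2% of the length of the block. It begins 23.8 kb before the NRIP1 window and ends 33.0 kb before the end of the USP25 window. Before the core lay 107 members and after it 5. The core rests on the linking distance: at 5 kb it broke into 28 pieces, of which the 2 largest held 48 intervals each.

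**Figure D1:**
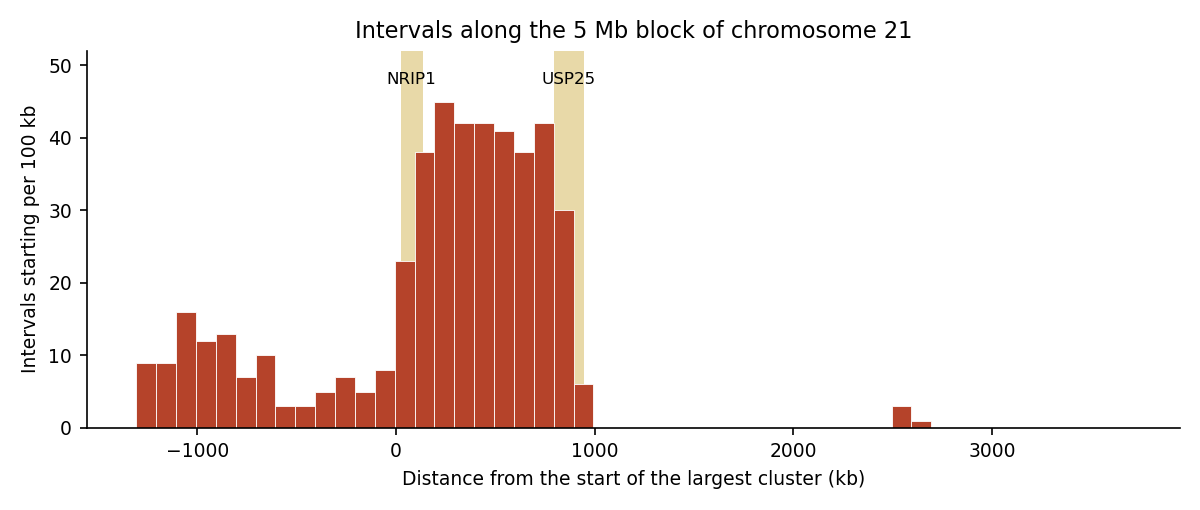
Bars give the number of intervals that start in each 100 kb of the block (vertical axis), against distance in kb from the start of the largest cluster (horizontal axis); shading marks the rounded NRIP1 and USP25 windows. The counts are 23 in the bin that holds the start of the cluster and 30 to 45 across the 8 bins wholly inside it. They fall to 6 in the bin that holds its end, and are 0 for the next 15 bins.

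The core was dense throughout but not even, and it had a sharp far side. Its 8 whole bins of 100 kb held between 30 and 45 intervals each, with a median of 41.5, and 25.5% to 45.2% of each bin was covered. The bin from 16.3 to 16.4 Mb, which holds its start and lies mostly within it, held 23 intervals and was covered over 16.3%. Linking over gaps of up to 12500 bp ends the core where a longer gap follows. A drop in count across its edges is therefore in part built in. At the near side, 191 intervals started in the first 500 kb of the core and 27 in the 500 kb before it. At the far side, 194 started in the last 500 kb and 1 in the 500 kb beyond. That single interval, chr21:17231479-17232151, still lies inside the USP25 window. After it came 1.61 Mb with no listed interval, up to chr21:18839760, the longest stretch of its kind in the block. As depth is unknown, an empty stretch shows only that no peak common to the 4 libraries was listed.

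The ground between both gene windows was denser in intervals than the windows. The NRIP1 window held 32 intervals, which covered 26.0 kb or 23.7% of it, with a median width of 726 bp. The USP25 window, whose last 33.0 kb lie beyond the core, held 37 intervals, covering 31.3 kb or 20.9%, with a median width of 718 bp. Between them lay 273 intervals in 660 kb, or 414 per Mb, covering 37.0%, with a median width of 779 bp. Intervals starting in the NRIP1 and USP25 windows came to 282 and 240 per Mb. The ground between the rounded windows thus held or touched 59.6% of the members. With the windows widened by 10 kb on each side, the NRIP1 window held 38 intervals and the USP25 window 40. Counting intervals at or above the median width of the list alone, the order turned, with 25 in the NRIP1 window and 23 in the USP25 window.

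The members nearest the rounded ends of the windows were narrower than the median of the core, 771.5 bp. The member nearest the lower end of the NRIP1 window was chr21:16329949-16330387 (438 bp), and that nearest its upper end chr21:16439356-16439934 (578 bp). The lower end of the USP25 window fell within chr21:17099735-17100260 (525 bp). The member nearest the upper end of the USP25 window was chr21:17231479-17232151 (672 bp), which lies outside the core. As the ends are rounded to 10 kb, which interval is nearest is partly arbitrary.

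Spacing inside the core was short and uneven. The median of its 345 gaps was 1101 bp, with quartiles of 356 and 2402 bp, and the longest was 10.2 kb, from 17144096 to 17154315 in the USP25 window. The next longest, 10.1 kb, lay in the NRIP1 window from 16340111 to 16350175. Of all gaps in the core, 48 (13.9%) were 100 bp or shorter and 19 (5.51%) were longer than that and up to 200 bp, so the shortest class held more gaps than the one after it. When the core was cut into 91 whole bins of 10 kb, the lowest was covered over 6.21%, the median over 33.6% and the highest over 80.0%. No bin was empty, but with a longest gap of 10.2 kb an empty bin was almost impossible, so this is no separate result. In 16 of the 91 bins, 50% or more was covered.

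Joining intervals over gaps of up to 1 kb turned the 346 intervals of the core into 183 islands. Of these, 97 were single intervals and 42 held 3 or more. The longest island was chr21:16501094-16511531, 10.4 kb with 7 intervals. The next were chr21:16575779-16586161, 10.4 kb with 6 intervals and 81.4% covered, and chr21:16518644-16528061, 9.42 kb with 7 intervals. These 3 lie within 85.1 kb of each other, outside both gene windows. The fourth, chr21:17183648-17190274, was 6.63 kb long with 4 intervals and lies in the USP25 window.

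The widest members lay both in the core and before it. Width, end minus start, is the single measure that the list gives besides position. Of the 10 widest, 6 lay in the core and 4 before it, while the core held 346 of all 458 members (75.5%) and 107 lay before it. None lay in the NRIP1 window, which held only 32 of the 458, so little can be read from that. The widest of all was chr21:15383704-15387001 with 3297 bp, before the core. It was followed by chr21:17114505-17117703 with 3198 bp in the USP25 window and chr21:15221226-15224392 with 3166 bp, again before the core. The USP25 window held a further one, chr21:17186610-17189366 with 2756 bp. The others, between 2280 and 2682 bp, were chr21:16575779-16578461, chr21:16536359-16538828, chr21:15307028-15309402, chr21:15218861-15221166, chr21:16578907-16581212 and chr21:16467125-16469405.

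**Figure D2:**
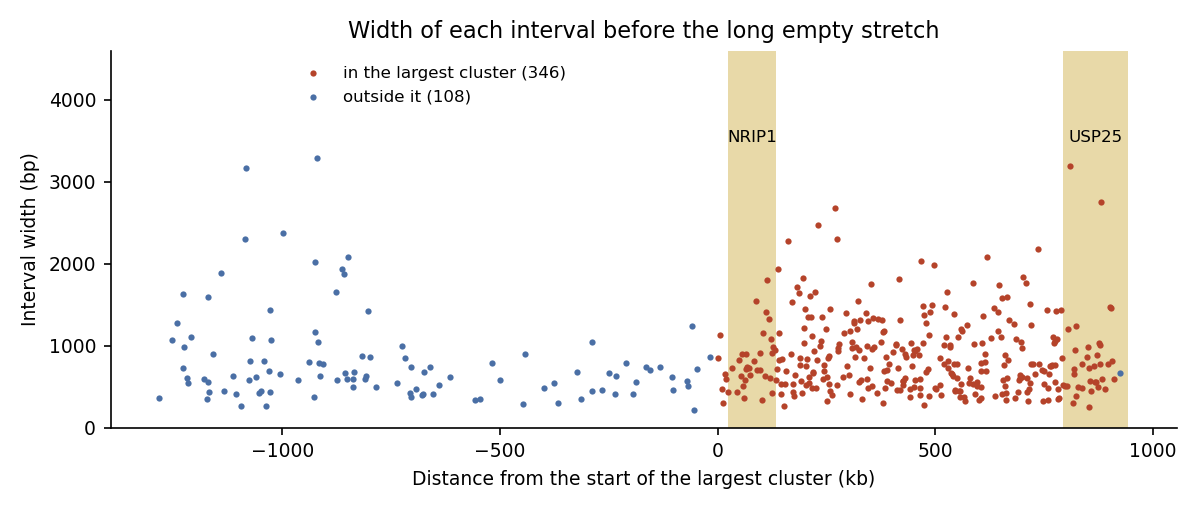
Each point is 1 interval, placed by its centre in kb from the start of the largest cluster (horizontal axis) and its width in bp (vertical axis); red points are the 346 intervals of that cluster, blue points the 108 others up to the long empty stretch, and shading marks the rounded NRIP1 and USP25 windows. The 3 intervals wider than 3000 bp are 2 blue points to the left and 1 red point in the USP25 window.

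Median width in the core was largest in 1 stretch of its nearer part. From 16.5 to 16.8 Mb, 129 intervals had a median width of 893 bp (quartiles 584 and 1203), and 38.8% were 1 kb or wider. From 16.8 to 17.1 Mb the median was 750 bp over 121 intervals, close to the medians at the ends of the core. There 33.1% were 1 kb or wider, nearer the share from 16.5 to 16.8 Mb than those at the ends. The dividing points were chosen after the values were seen. At the ends the median was 722 bp over the 61 intervals before 16.5 Mb and 735 bp over the 35 from 17.1 Mb on. Of these intervals, 21.3% and 22.9% were 1 kb or wider. The quartile ranges of these stretches overlapped. Across the 24 bins of 100 kb with 3 or more members, the count and the median width had a Spearman rho of 0.63, as a description, since bins of a run share neighbours. Across the 458 single members, width and distance to the nearest member had a rho of -0.12.

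The 107 members before the core were sparser and formed small groups. They began at 15.02 Mb and ended at 16.29 Mb, and had a median width of 636 bp and a median gap of 6.91 kb. From 15 to 15.7 Mb, 76 members covered 9.92% of the ground, and from 15.7 to 16.3 Mb 31 members covered 3.07%, with the dividing points read from the counts. Clusters of 3 or more numbered 9 in the first stretch and 2 in the second. The fullest was chr21:15192307-15281506 with 17 members, and the most covered was chr21:15367240-15400267, whose 9 members covered 33.0%, close to the 33.5% of the core. The widest member lies in this second one. The 4 members beyond the empty stretch, from 18839760 to 18909933, formed no cluster of 3 and were 284 to 357 bp wide, narrower than the lower quartile of the core (540 bp).

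**Figure D3:**
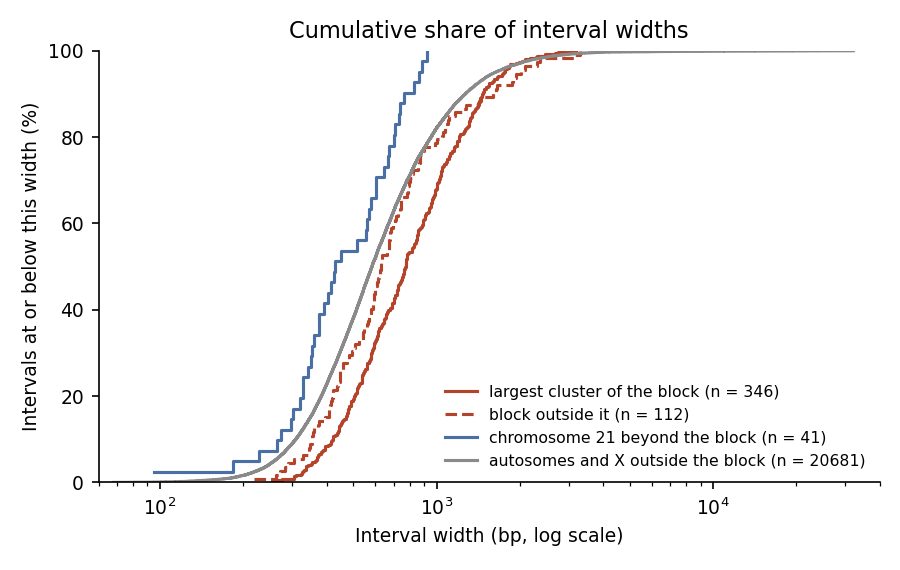
Lines give the cumulative percentage of intervals (vertical axis) at or below each width in bp (horizontal axis, log scale) for the largest cluster of the block (solid red), the rest of the block (dashed red), chromosome 21 beyond the block (blue) and all other autosomal and X intervals (grey). The solid red line lies right of the grey one through the middle of the range, with medians of 771.5 and 584 bp, and the blue line lies left of both, with a median of 430 bp.

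Chromosome 21 beyond the block held few intervals, and they were narrower. The block had 458 intervals, or 91.6 per Mb, and the 27.9 Mb from 20 Mb to the last interval of the chromosome had 41, or 1.47 per Mb, a ratio of 62.4 that the choice of limits builds in. The ratio was 38.4 after joining intervals over 1 kb, 109 for intervals at or above the median width of the list, and 13.0 against all other autosomal and X ground. Members had a median width of 734.5 bp (quartiles 525 and 1052), against 430 bp (343 and 665) from 20 Mb on. In the block 135 of 458 intervals (29.5%) were 1 kb or wider, against 0 of 41 from 20 Mb on. Over all 21139 intervals of the autosomes and X, 18.2% were 1 kb or wider. The core had 111 of 346 (32.1%) and the members before it 24 of 107 (22.4%). At 2 kb or wider the block had 15 of 458 (3.28%), beside 2.91% over the autosomes and X. At that limit the order within the block turned, with 9 of 346 (2.60%) in the core and 6 of 107 (5.61%) before it. The longest stretch without an interval beyond the block ran from 22229615 to 30449063 (8.22 Mb).

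Before the block the chromosome was also populated, but differently. The block had a median gap of 1.54 kb and its widest interval measured 3297 bp. From its first interval at 9.43 Mb to 15 Mb, chromosome 21 held 303 intervals, with a median gap of 1.57 kb, a median width of 810 bp and a widest interval of 9045 bp. This stretch was not continuous: its longest gap was 3150.1 kb. Which side of that gap the wide intervals lie on was not examined, nor whether the build has sequence throughout the gap. At 2 kb or wider were 3.28% in the block and 11.6% there.

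Among the clusters of the whole list at the linking distance of 12500 bp, the core had the most intervals, but it was neither the densest nor the most covered of the 6 fullest. A high rank is in part built in, as the block was chosen from its density. The largest cluster of the block ranked 6th at 5 kb and 2nd at 25 kb, distances chosen for this ranking after seeing the data. It held 380 intervals per Mb, against 413 for the chromosome 18 cluster from 21.47 Mb, 385 for that from 19.71 Mb and 329 for that from 20.70 Mb. The chromosome 19 cluster from 39.26 Mb had 369 and the chromosome 20 cluster from 49.87 Mb had 334. Intervals covered 33.5% of the core and 31.8% to 59.1% of the others. Its median width of 771.5 bp was the lowest of the 6, the others lying between 841 and 1525 bp. The core had the fewest intervals around it: 28 lay within 500 kb outside it, against 105 to 194 for the others, 3 of which lie on chromosome 18. Of these, the clusters from 20.70 and 21.47 Mb lie within 500 kb of each other. Their counts, 194 and 145, therefore include intervals of the other cluster. In 3 of the 6, counting the core, the 500 kb after the cluster held at most 1 interval.

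**Figure D4:**
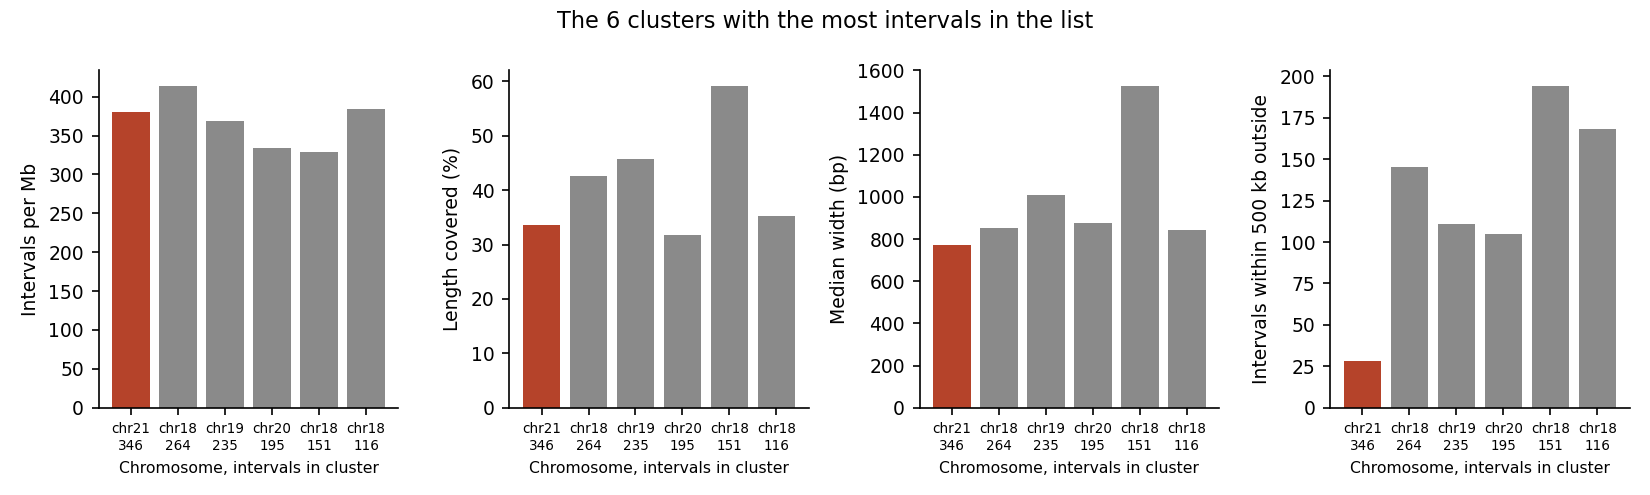
Bars compare the 6 clusters with the most intervals, the one of the block in red at the left and 5 others in grey, by intervals per Mb, percentage of length covered, median interval width in bp and number of intervals within 500 kb outside the cluster; the number under each chromosome name is its count of intervals. The red bar ranks 3rd in density and is lowest in median width (771.5 bp) and in outside intervals (28).

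The rank of the block depended on the size of the window. As the limits of the block were chosen from its density, a high rank is in part built in. By 5 Mb windows, the block was the 5th fullest of 620, and the fullest, on chromosome 20, held 664. By 1 Mb windows, the one from 16 Mb held 289 intervals and was the 3rd of 3046, where the highest held 351 and the median window 2.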

How the data were processed

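The series holds 4 CUT&RUN libraries, all against GATA4 and all from PaTu8988S cells. The submitters' processing notes name SEACR, which calls peaks, HOMER, a motif and peak annotation package, and build hg19. Versions, settings and the overlap that made a peak common were not given in the sources used here. The deposited list holds chromosome, start and end in bp, pooled over the libraries. It held 21308 intervals with 0 duplicates, and comparisons used the 21139 on the autosomes and X. Whether starts count from 0 or 1 is not stated, so a width may be 1 bp larger.

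Tools were pandas 2.3.3, numpy 2.4.6 and scipy 1.17.1 under Python 3.11.15, and the clustering, merging and gap functions were tested on simulated data. Intervals were linked over gaps of up to 12500 bp, and counts, widths and covered length were taken per stretch. No test was made, as nothing is replicated. Gene order and promoters came from RefSeq tables of GRCh38.p14, whose positions were never set against the intervals. The members, windows and lists were chosen with earlier results of these data known. Intervals were named by rule: the 10 widest, the first and last, those at window ends, the longest gaps and large clusters; islands were named after their values were seen. Alternatives were merging, width limits, linking distances, other grounds of comparison, windows and flanks.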

Additional observations from a re-analysis of the deposited data

How the results depend on the processing

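Of 51 recomputed values of 12 results, 34 stayed within the limits (1.5 times, or for shares and the median width an exact 95% interval, used only as a yardstick since intervals are not replicates), 17 moved further and 0 reversed direction. The ratio of densities, 62.4 in the report, was 38.4 after merging over 1 kb, 109 at or above the median width of 586 bp, and 13.0 against all other autosomal and X ground. The share of members in the largest cluster, 75.5%, was 66.5% after merging over 1 kb, 51.9% at or above the median width and 10.5% with a linking distance of 5 kb, where clusters of 3 or more numbered 32. Its rank by intervals in the whole list, 1, was 6 at 5 kb and 2 at 25 kb, an alternative chosen after seeing the data. The median width of members was 778 bp after merging over 100 bp and 959 bp after merging over 1 kb, which joins intervals into wider ones, and 934.5 bp at or above the median width, which drops the narrow ones. The USP25 window held 23 intervals at or above the median width. Intervals inside the far edge numbered 104 after merging over 1 kb, and 90 and 352 with flanks of 250 kb and 1 Mb, which span other lengths. Beyond the far edge 77 intervals were counted at or above the median width, because the core then splits and its largest piece ends at 16896665. The pooled list allowed no leaving out of libraries. No paired analysis was possible because all libraries form 1 group and are pooled. Depth is unknown and limits what an empty stretch can show.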

Other observations

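The pair of a width of 2305 bp and a gap of 60 bp to the next interval occurred at 2 places in the block, at chr21:15218861-15221166 before the core and at chr21:16578907-16581212 inside it, and was the single such pair to recur among its 457 gaps. The next interval was 3166 bp wide at the first place and 519 bp wide at the second. Gaps of 100 bp or less made up 53 of the 457 gaps in the block (11.6%), against 930 of 20657 (4.50%) on the autosomes and X outside it. As the block was chosen from its density, a larger share of short gaps is in part built in. In the largest cluster of the block the share of gaps of 100 bp or less was 13.9%, against 11.9% to 30% in the 5 next fullest clusters of the list.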
